A study of Homo sapiens with 6 samples.

Results

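The subject is a group of 10 circadian clock genes in U2OS cells, an established human osteosarcoma line, after inhibition of PARG, a hydrolase that takes apart chains of poly(ADP-ribose). The members are the PAR bZIP output factors DBP, TEF and HLF, the nuclear receptors NR1D1 and NR1D2 (REV-ERB alpha and beta), the period genes PER1, PER2 and PER3, and the repressors BHLHE41 (DEC2) and CIART (CHRONO). They are 10 of 60708 gene identifiers counted and were taken by symbol. The group was chosen by its log2 fold changes between inhibited and control cells in these same libraries, so the values of that comparison are given for the members as a description, without a test. Wild-type U2OS cells received either the solvent DMSO (3 libraries) or 25 µM of the PARG inhibitor PDD00017273 (3 libraries, called PARGi here) for 4 days. The series' design text calls these biological triplicates. Both groups were grown in DMEM with serum. The labels give no clock synchronisation and no hour of harvest, and each group has 1 time point, so a lower mean level, a lower amplitude and a shifted phase of a cycling transcript cannot be told apart. In bulk RNA, fewer cells with a transcript and less RNA per cell cannot be told apart either.

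In the mammalian clock, the activators CLOCK and BMAL1 bind E-boxes in DNA and drive the transcription of their own repressors. Among these, the PER proteins act with the CRY proteins on CLOCK and BMAL1 themselves, BHLHE41 competes for E-boxes, CIART represses CLOCK and BMAL1 activity, and the REV-ERB receptors repress BMAL1 through response elements shared with the ROR activators. DBP, TEF and HLF are outputs of the same loop that carry the rhythm on to other genes through D-boxes. Because all these genes are driven at the same arm of the loop, they are commonly read together as a measure of E-box-driven clock transcription.

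The promoter sequences of the members were searched because E-boxes and D-boxes are the elements that tie this group together, and the count data do not enter them. RefSeq windows on GRCh38.p14 ran from 250 bases before to 50 after each annotated start. Both strands were searched for the E-box CACGTG, which is its own reverse complement and was counted once, the variant E-box CACGTT (E-prime box), the D-boxes TTATGTAA and TTACGTAA, and the REV-ERB and ROR element core TAGGTCA. The stretches that hold a match are shown 5′ to 3′ on the strand of the gene, with the matches in capitals.
TEF start 1, chr22:41367248-41367277, plus strand: gcgcgacagctcCACGTGctgcagctggcg
TEF start 2, chr22:41381737-41381766, plus strand: cacctggccccgCACGTGtctatcttatcc
NR1D1, chr17:40100740-40100769, minus strand: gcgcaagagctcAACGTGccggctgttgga
NR1D2 start 2, chr3:23945915-23946033, plus strand: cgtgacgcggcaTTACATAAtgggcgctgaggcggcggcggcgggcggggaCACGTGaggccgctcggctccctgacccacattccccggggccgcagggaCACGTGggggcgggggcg
PER1, chr17:8152560-8152589, minus strand: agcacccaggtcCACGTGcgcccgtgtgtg
PER2 upstream element, chr2:238288790-238288819, minus strand: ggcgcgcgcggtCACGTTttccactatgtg
PER2 element at the start, chr2:238288606-238288625, minus strand: ccccgctgcggcTTACGTAA
PER3 start 1, chr1:7784102-7784133, plus strand: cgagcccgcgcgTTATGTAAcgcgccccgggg
BHLHE41, chr12:26125068-26125097, minus strand: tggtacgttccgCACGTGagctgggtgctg
CIART, chr1:150282413-150282514, plus strand: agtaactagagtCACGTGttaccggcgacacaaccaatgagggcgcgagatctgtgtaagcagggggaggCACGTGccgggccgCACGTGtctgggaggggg

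The E-box CACGTG was present in the windows of 5 of the 10 members, against 8.77% of the 27305 genes with a RefSeq window. TEF held 1 copy before each of its 2 starts, PER1 and BHLHE41 held 1, NR1D2 held 2 and CIART held 3. The variant CACGTT was present in 2 members, PER2 and NR1D1 (there on the opposite strand, so that it reads AACGTG on the gene's strand), and in 6.44% of genes. A D-box was present in 3 members, NR1D2 (on the opposite strand), PER2 and PER3, and in 1.27% of genes. The element TAGGTCA was in none of the 14 windows of the members and in 2.29% of genes. DBP and HLF held none of these letters in their windows. Counting the first transcribed base as 1, the BHLHE41 E-box lay at -48 to -43 and the PER1 E-box at -173 to -168. The PER2 D-box spanned the start itself, from -3 to 5. In the GENCODE 29 models of the same build, the TEF start 1, NR1D1, PER3 and CIART elements lay upstream of the gene. Those of TEF start 2, NR1D2, PER1 and the upstream PER2 element lay in an intron, since these RefSeq starts are downstream of the first annotated exon. The BHLHE41 E-box and the PER2 D-box touched an untranslated or non-coding exon. A match of letters is a description of the window and was not tested for binding.

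**Figure D1:**
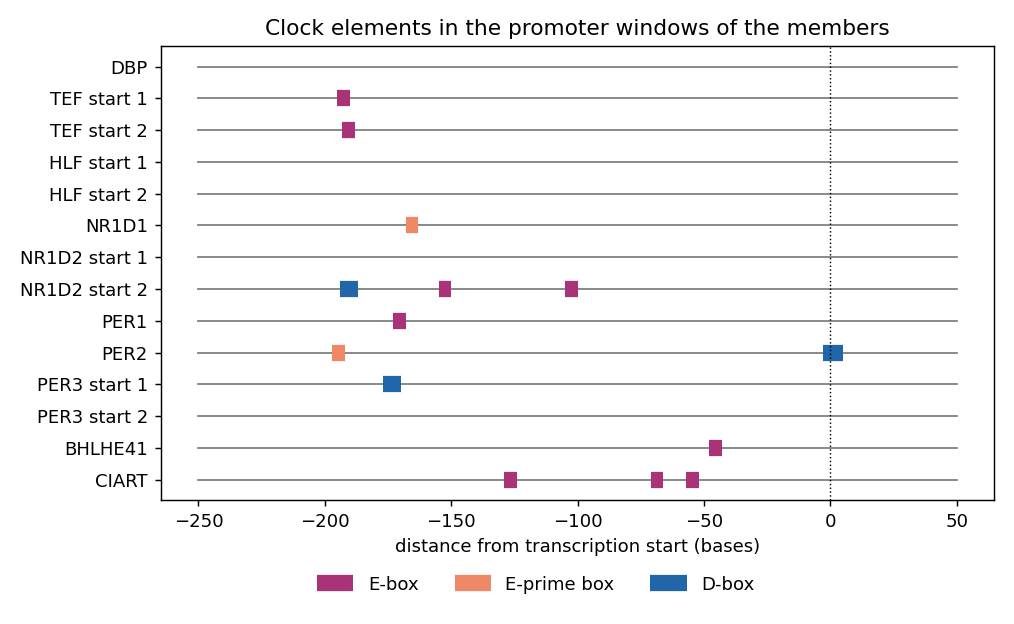
Position of each matched element (coloured blocks) in the 14 promoter windows of the 10 genes (grey lines), as distance in bases from the RefSeq transcription start (dotted line). CIART carries 3 E-boxes and NR1D2 start 2 carries 2 with a D-box, while DBP and HLF carry no match.

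Each library held between 60286931 and 80605145 counts, and 20409 genes passed the filter on low counts and entered the quasi-likelihood test of edgeR. At a Benjamini-Hochberg adjusted p under 0.05, 24.3% of tested genes were called, with 13.2% higher and 11.0% lower in PARGi, and the median log2 fold change over all tested genes was -0.0070. Under upper-quartile scaling the share of calls that were higher moved from 54.5% to 40.5%. Levels below are CPM, counts scaled to a common library size with TMM factors. The cells carried the osteoblast-lineage transcripts RUNX2 (83.3 ± 1.14 CPM, SD, n = 3, in DMSO), SPARC (1677 ± 17.1 CPM) and COL1A1 (4374 ± 268 CPM), while the late marker BGLAP and the factor SP7 were near 0 in both groups. The 8 genes of this list summed to 6125 to 6696 CPM in DMSO and 6294 to 6383 CPM in PARGi. Of the 6 tested, COL5A2 and ALPL were higher and COL1A2, RUNX2 and SPARC lower. The summed markers of other lineages stayed low: 5.10 to 5.86 CPM for 4 epithelial genes, 1.09 to 1.34 for 4 blood genes and 2.85 to 4.07 for 3 endothelial genes. Of these only CDH1 passed the test. The part of any of these markers in the results on clock genes was not tested.

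All 10 members passed the filter. Their fitted log2 fold changes (PARGi minus DMSO) were all below 0, from -0.93 for DBP to -0.048 for PER1, with a median of -0.31. For 9 of the 10, the 3 PARGi libraries all lay below the 3 DMSO libraries, a pattern seen in 18.2% of tested genes. The fit called 8 members lower, beside 11.0% of all tested genes, and none higher, beside 13.2%. Since this contrast was used to choose the group, nothing is read from these shares. The intervals given below for the members come from the same contrast and are a description too.

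DBP, at chr19:48630030-48637438 on the minus strand, encodes the D-box-binding protein that is among the strongest E-box-driven outputs of the clock. It was measured at 25.5, 25.4 and 26.7 CPM in DMSO replicates 1, 2 and 3, and at 14.0, 12.8 and 13.8 CPM in PARGi replicates 1, 2 and 3. The 6 values form separate groups with a wide gap between them. The means were 25.9 ± 0.753 and 13.6 ± 0.649 CPM (SD, n = 3 each), a level in PARGi of 0.524 times that in DMSO and a log2 fold change of -0.93 (SE 0.046, 95% interval -1.03 to -0.84). A fold change of larger size was found in 1.29% of tested genes. The E-box search of its 300-base window found no match, and sequence outside the window was not searched.

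HLF, the hepatic leukemia factor, at chr17:55265012-55325065, had the second largest log2 fold change in size and was low in level. Its counts ran from 206 to 442 per library. It was measured at 5.92, 5.65 and 5.94 CPM in DMSO and at 3.43, 3.81 and 3.58 CPM in PARGi. The groups did not overlap. The log2 fold change was -0.69 (SE 0.081, 95% interval -0.86 to -0.52), a level of 0.619 times that in DMSO.

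TEF, the thyrotroph embryonic factor, at chr22:41367333-41399326, was the most abundant of the 3 PAR bZIP genes. It was measured at 42.2, 41.9 and 41.3 CPM in DMSO and at 31.8, 33.1 and 31.2 CPM in PARGi. The spread within each group was under 1 CPM (SD 0.470 and 0.949), against a difference in means from 41.8 to 32.0 CPM. The log2 fold change was -0.38 (SE 0.034, 95% interval -0.46 to -0.31). The 3 proteins bind the same D-box, and their transcripts differed in share. Per kilobase of exon, TEF made up 64.7% ± 0.841 of the summed PAR bZIP level in DMSO and 72.2% ± 1.11 in PARGi, while DBP made up 28.8% ± 0.765 and 22.0% ± 1.31. The sum itself was 13.7 ± 0.0759 CPM per kilobase in DMSO and 9.41 ± 0.139 in PARGi. These values rest on the length of all annotated exons, 6544 bases for DBP, 4715 for TEF and 6602 for HLF. The longest DBP transcript has 5756 bases, and a shorter length for DBP alone would raise its share. The SDs hold the spread between libraries and not the choice of length.

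NR1D1, at chr17:40092787-40100725 on the minus strand, encodes REV-ERB alpha, a heme-binding repressor of BMAL1. It was measured at 28.1, 29.9 and 29.8 CPM in DMSO and at 22.2, 21.8 and 19.5 CPM in PARGi. The groups did not overlap, and PARGi replicate 3 was the lowest library. The log2 fold change was -0.47 (SE 0.046, 95% interval -0.57 to -0.38), a level of 0.720 times that in DMSO. NR1D2, at chr3:23945260-23980618, encodes the related REV-ERB beta. It had 119, 118 and 113 CPM in DMSO and 96.4, 95.3 and 99.9 CPM in PARGi. Its log2 fold change was -0.26 (SE 0.028, 95% interval -0.32 to -0.20). Per kilobase of exon, NR1D2 made up 65.5% ± 1.18 of the summed REV-ERB level in DMSO and 68.7% ± 1.98 in PARGi.

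The PER genes encode the repressors that limit their own transcription. PER3, at chr1:7784320-7845177, was the most abundant of them, at 108, 106 and 107 CPM in DMSO and 92.5, 94.9 and 92.3 CPM in PARGi. Its log2 fold change was -0.20 (SE 0.026, 95% interval -0.25 to -0.14), with groups well apart. PER2, at chr2:238244038-238290102 on the minus strand, was measured at 19.6, 18.3 and 21.0 CPM in DMSO and at 18.0, 17.0 and 18.0 CPM in PARGi. The PER2 groups nearly touched, since the lowest DMSO library, replicate 2, lay just above the highest PARGi library. The log2 fold change of PER2 was -0.16 (SE 0.050, 95% interval -0.26 to -0.056), and leaving out DMSO replicate 2 gave -0.21, leaving out DMSO replicate 3 gave -0.11.

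PER1, at chr17:8140472-8156506 on the minus strand, is also an immediate-early gene that answers to serum, cAMP and glucocorticoids. It was measured at 36.3, 36.8 and 38.1 CPM in DMSO and at 35.6, 35.8 and 36.1 CPM in PARGi. Every PARGi library lay below every DMSO library, but by a narrow margin. The log2 fold change was -0.048 (SE 0.034) with an interval from -0.12 to 0.022 that includes 0, and 74.2% of tested genes had a larger absolute value. In proportion, the interval runs from -7.87% to 1.54%. PER1 carries an E-box, as shown above, and had the smallest log2 fold change of the group in size. A link between matched elements and the differences of the members was not tested. Per kilobase of exon, PER1 made up 24.8% ± 0.437 of the summed PER level in DMSO and 26.7% ± 0.219 in PARGi, and PER3 61.8% ± 0.909 and 60.0% ± 0.662.

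BHLHE41, at chr12:26120026-26125127 on the minus strand, encodes DEC2, a basic helix-loop-helix repressor that occupies E-boxes. It was measured at 60.7, 65.1 and 63.3 CPM in DMSO and at 52.6, 50.6 and 49.0 CPM in PARGi. The groups did not overlap, and the log2 fold change was -0.31 (SE 0.033, 95% interval -0.38 to -0.24). CIART, at chr1:150282543-150287093, was close to undetected, with raw counts of 13, 4 and 16 in DMSO and 11, 8 and 9 in PARGi. The CIART groups overlapped, with the lowest value in DMSO. Its log2 fold change of -0.31 had an SE of 0.45 and an interval from -1.24 to 0.62, wide at this depth and reaching to both signs. Its 3 E-boxes, the most of any member, stood in front of the least abundant transcript of the group.

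**Figure D2:**
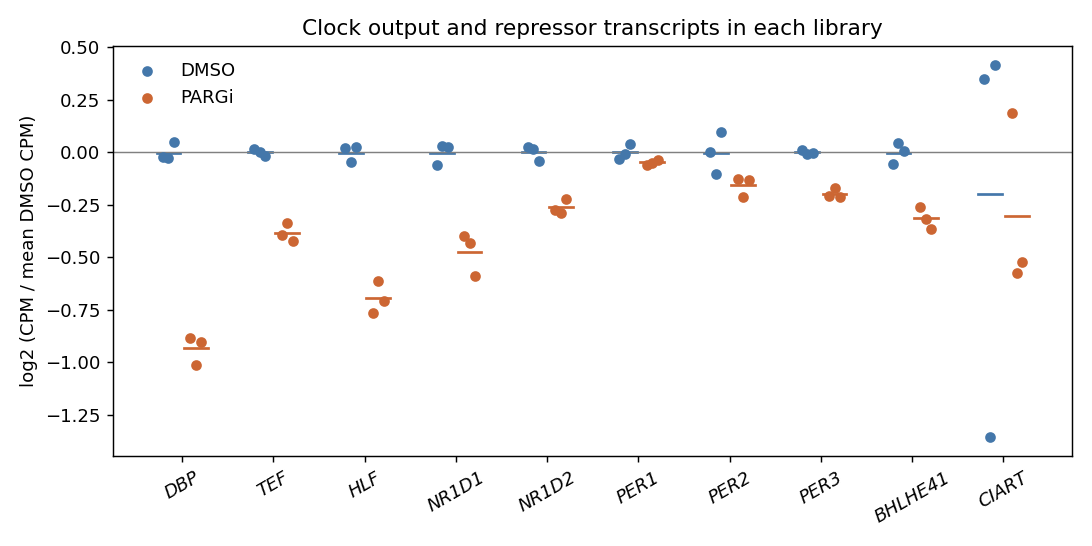
Each point is 1 library, as the log2 ratio of its CPM to the mean DMSO CPM of that gene, with DMSO in blue, PARGi in orange and bars at the mean of the 3 log2 values. The PARGi points lie below all DMSO points for 9 genes, far below for DBP and barely for PER1, while the CIART points overlap.

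Within a group, the members did not move together from library to library. Leaving out CIART for its low counts, the log2 deviations of the other 9 from their group means ran from -0.115 to 0.0995. Between 4 and 6 of the 9 lay above the group mean in every library, and the median deviation of a library ran from -0.010 to 0.025. The widest deviations were those of NR1D1 in PARGi replicate 3 and of PER2 in DMSO replicates 2 and 3. No single library was low for all members.

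Levels can be compared between genes only per length. In CPM per kilobase of exon (mean ± SD, n = 3), NR1D2 was highest in DMSO, at 20.0 ± 0.492. It was followed by BHLHE41 at 16.0 ± 0.553, PER3 at 13.2 ± 0.0912, NR1D1 at 10.6 ± 0.363 and TEF at 8.87 ± 0.0998. Below these came PER1 at 5.29 ± 0.129, DBP at 3.95 ± 0.115, PER2 at 2.86 ± 0.199, HLF at 0.884 ± 0.0244 and CIART at 0.0597 ± 0.0316. The libraries of every pair of neighbours in this order were separate in DMSO. In PARGi the order was the same except that DBP, at 2.07 ± 0.0992, stood below PER2, at 2.56 ± 0.0848, with no overlap between their libraries. NR1D1 and TEF came close in PARGi, where the lowest NR1D1 library (7.03) was just above the highest TEF library (7.01). On this scale the largest differences in level (PARGi minus DMSO) were those of NR1D2 (-3.32 CPM per kilobase), BHLHE41 (-3.10) and NR1D1 (-2.94). DBP, largest in proportion, differed by -1.88 CPM per kilobase. With the longest transcript as the length in place of all exons, PER3 and BHLHE41 changed places in the order of DMSO means. Whether the libraries of neighbours stay separate with that length was not examined. The levels themselves moved as well. In DMSO, PER1 became 7.87, PER3 16.9 and DBP 4.49 CPM per kilobase, shifts larger than their SDs. TEF, HLF, NR1D2 and PER2 also moved by more than their SDs, while NR1D1, BHLHE41 and CIART did not. Shares within the families were computed with all exons only.

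**Figure D3:**
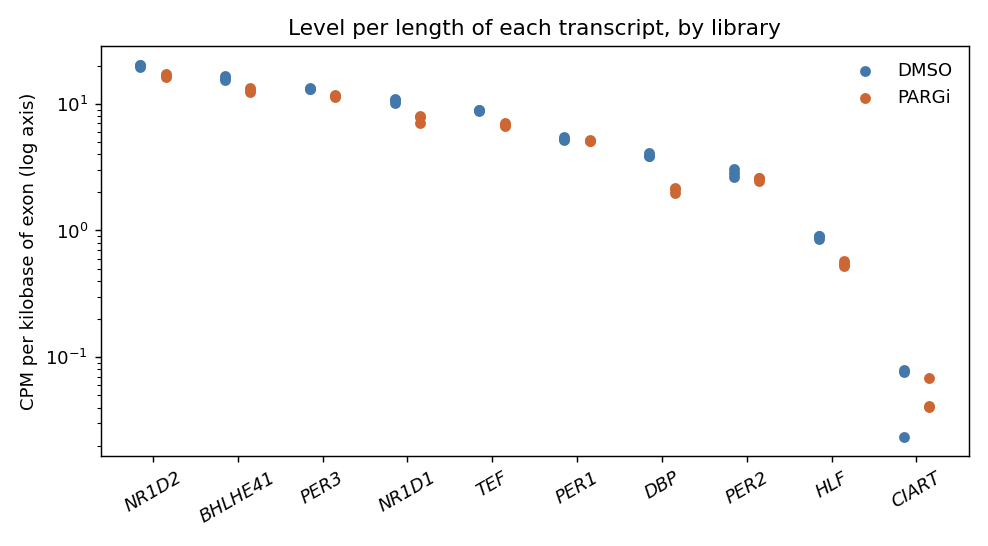
Level of each gene in each library in CPM per kilobase of exon on a log axis, ordered by the DMSO mean, with DMSO in blue and PARGi in orange. The levels span from about 20.0 for NR1D2 to 0.0597 for CIART in DMSO, and the DBP points in PARGi drop below those of PER2.

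Against the distribution of all tested genes, the members covered the range from its outer left flank to its centre. The share of tested genes with a lower log2 fold change was 0.916% for DBP, 2.40% for HLF, 5.77% for NR1D1 and 8.36% for TEF. It was 11.3% for BHLHE41, 14.0% for NR1D2, 18.5% for PER3, 22.0% for PER2 and 39.5% for PER1.

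**Figure D4:**
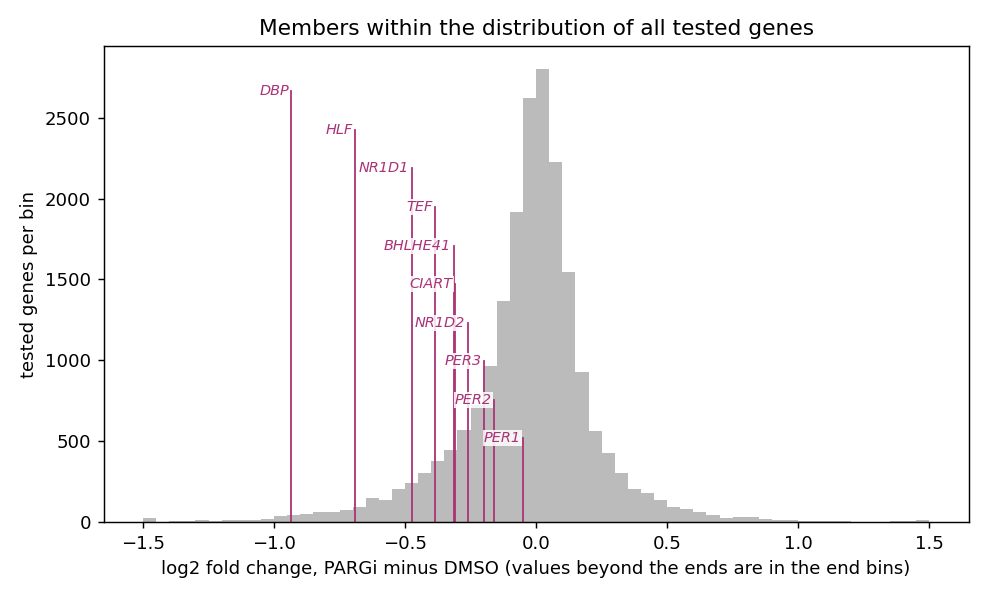
Grey bars count the 20409 tested genes by log2 fold change, PARGi minus DMSO, in steps of 0.05, and purple lines mark the members (line heights differ only to separate the names). DBP and HLF lie in the left tail and PER1 lies near the centre at -0.048.

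Some members share exonic bases with a gene on the other strand. The kit keeps strand, but the strand setting of the counting is not given in the sources used here, so reads from the shared bases may be uncertain. SPHK2 overlaps 661 exonic bases (10.1%) of DBP and was measured at 18.9 ± 0.609 CPM in DMSO and 18.4 ± 0.120 in PARGi, with a log2 fold change of -0.043 and an adjusted p of 0.53. THRA overlaps 263 bases (9.49%) of NR1D1 and was at 58.1 ± 1.46 and 54.8 ± 0.582 CPM, a log2 fold change of -0.085 (adjusted p = 0.0398). SSPN overlaps 162 bases (4.10%) of BHLHE41 and was lower as well, at 22.2 ± 0.331 and 14.1 ± 0.158 CPM, a log2 fold change of -0.66. The part of SSPN reads in the BHLHE41 value was not tested. UTS2, which overlaps 868 bases of PER3, had at most 4 counts in any library.

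A list of other core clock genes held the activators, the RORs, the CRY repressors, BHLHE40, NFIL3 and TIMELESS, which is better known as a replication fork factor. Of 11 tested, 4 were higher in PARGi and 0 lower (36.4% called, beside 24.3% of all tested genes), with a median log2 fold change of 0.048. The count of lower genes was 0 in edgeR, DESeq2 and limma-voom, and 0 at an unadjusted p under 0.05. The members, chosen by their fold changes in this contrast, had been taken out of this list. Nothing is therefore read from the count of 0 lower or from the contrast with the members. BHLHE40 (DEC1), the paralog of BHLHE41, was at 287 ± 6.19 CPM in DMSO and at 381 ± 6.83 CPM in PARGi. It rose by 0.41 on the log2 scale (adjusted p = 1.55e-11), opposite in sign to BHLHE41. BMAL2, a paralog of BMAL1, rose by 0.26 (adjusted p = 3.41e-06) and TIMELESS by 0.11 (adjusted p = 0.00172). RORB rose by 0.27 (adjusted p = 0.0226), a call lost without DMSO replicate 1, PARGi replicate 2 or PARGi replicate 3, where the adjusted p reached 0.128 at most.

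The intervals of the activators BMAL1 and CLOCK were narrow and included 0. BMAL1 was measured at 24.4 ± 0.556 CPM in DMSO and 25.2 ± 0.571 in PARGi, a log2 fold change of 0.048 with an interval from -0.033 to 0.13 (adjusted p = 0.416). CLOCK was at 71.3 ± 1.36 and 74.0 ± 2.44 CPM, 0.055 with an interval from -0.0062 to 0.12 (adjusted p = 0.193). The repressors CRY1 and CRY2, which are also E-box-driven, gave -0.0062 (-0.072 to 0.059, adjusted p = 0.918) and -0.0012 (-0.089 to 0.087, adjusted p = 0.989). The sign of both CRY values changed among the alternative fits. NPAS2, RORA and NFIL3 did not pass the test.

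**Figure D5:**
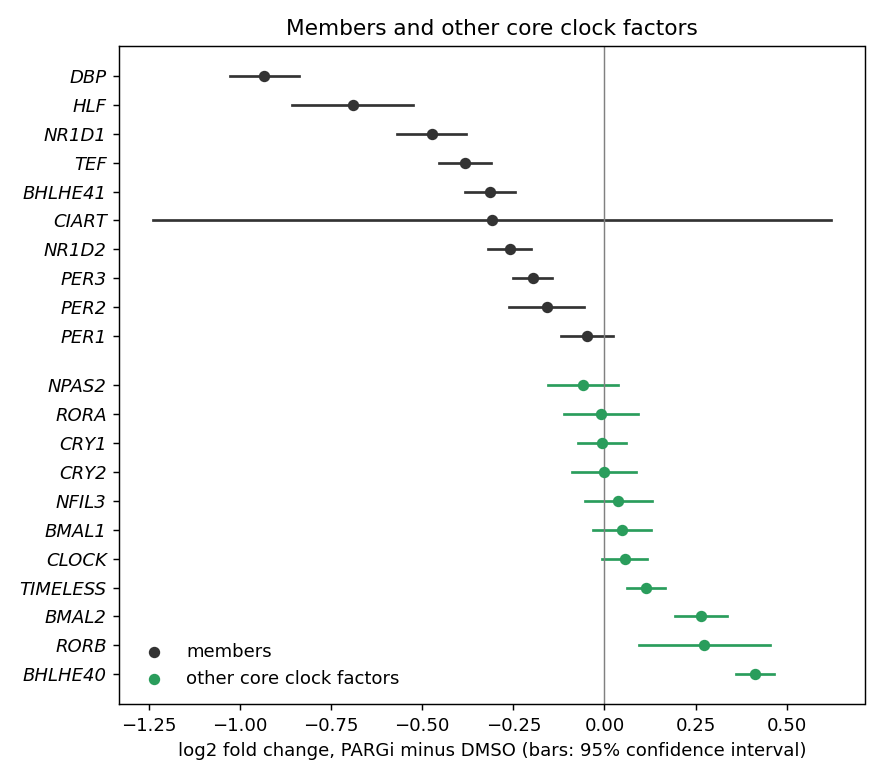
Log2 fold change, PARGi minus DMSO (points), with 95% confidence intervals (bars) for the 10 members in black and 11 other core clock genes in green. All member points lie left of 0, from -0.93 to -0.048, with the intervals of PER1 and CIART reaching past 0, and the 4 called green genes lie right of 0. The members were chosen by this same contrast, so the split between black and green is a description.

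Genes that act on PER and CRY proteins after translation, such as casein kinases and ubiquitin ligases, were mostly not called. Of 16 tested, 1 was higher, BTRC, a ubiquitin ligase subunit that targets PER proteins (0.15, adjusted p = 0.00306), and 0 were lower in edgeR, DESeq2 or limma-voom or at an unadjusted p under 0.05. The share called was 6.25%, and the median log2 fold change was 0.017. Without DMSO replicate 2 the count was 2. Other known clock-controlled genes went both ways: of 15 tested, 4 were higher and 2 lower (40.0% called), with a median of 0.058. Among them were KLF10 (0.17, adjusted p = 1.26e-04) and the heme synthesis enzyme ALAS1 (0.16, adjusted p = 7.11e-04), both higher, and the lipid regulator SREBF1, lower (-0.16, adjusted p = 3.42e-05).

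PER1 also answers to signals outside the clock. Lists of immediate-early and glucocorticoid genes, and a further list of hypoxia genes, were counted. The part of any of these signals in the PER1 value was not tested. Of 14 cAMP- and serum-responsive immediate-early genes, 4 were higher, EGR1 (0.45), ATF3 (0.37), NR4A1 (0.25) and JUNB (0.23), with a median of 0.059. The share called, 28.6%, was near the 24.3% of all tested genes. In edgeR, DESeq2 and limma-voom 0 were lower, as at an unadjusted p under 0.05. Of 9 genes linked to the glucocorticoid receptor, 4 were higher and 2 lower (66.7% called), with a median of 0.055. These included the feedback inhibitor ERRFI1 (0.36) and the receptor NR3C1 (0.15), which rose, and SGK1 (-0.36) and NFKBIA (-0.30), which fell. Of 11 hypoxia-related genes, whose HIF factors are relatives of CLOCK and BMAL1, 4 were higher and 1 lower (45.5% called), with a median of 0.084. VEGFA (0.34) and EPAS1 (0.31) were higher. HIF1A (0.091) and NDRG1 (-0.083) passed narrowly and were lost without PARGi replicate 2 or PARGi replicate 3, HIF1A also without DMSO replicate 3 or with upper-quartile scaling and NDRG1 also without DMSO replicate 1 or with no filter on low counts. Their adjusted p reached 0.110 and 0.120 at most. Across the leave-outs the hypoxia count ran from 2 to 5.

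Of 21 other E-box-binding factors tested, 5 were higher and 6 lower (52.4% called), with a median of 0.028. The 4 with the smallest p were MXD4 (-0.32), MXI1 (-0.33), MNT (-0.25) and MYCL (-0.87, adjusted p = 1.04e-07), all lower. The other lower genes were MYCN (-0.72, adjusted p = 7.60e-05) and MLXIPL (-1.27, from a level under 1 CPM, called in 7 of 12 alternatives). The higher genes were TFEC (1.37, from a level under 1 CPM), MITF (0.29), HES1 (0.18), TFE3 (0.11) and MAX (0.11), the partner of MYC. MYC itself (0.059, adjusted p = 0.179) and the further MAX partners MXD1 (0.071), MXD3 (-0.011) and MGA (-0.074) did not pass the test.

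Genes outside the group were then set beside the promoter search. Among 1536 other tested genes with a CACGTG window, 15.2% were called lower and 14.2% higher. Among 11466 without one, the shares were 11.4% and 16.5%. With 2 or more copies (153 genes) they were 23.5% and 9.80%. For a D-box (117 genes) they were 18.8% lower and 12.0% higher, against 11.8% and 16.2% of 12885 genes without. Shares for the variant CACGTT (1008 genes) were 10.2% lower and 16.0% higher, against 12.0% and 16.2% of 11994 genes without. For TAGGTCA (220 genes) they were 13.2% and 16.4%, against 11.8% and 16.2% of 12782 genes without. Median log2 fold changes were -0.0060 with a CACGTG window and 0.0071 without. Genes with an E-box also differ in many other ways, and no test was made on these shares.

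The 3 genes with the pattern most like the mean of the members were CACFD1, ZNF503 and C1QTNF1, with Pearson r of 0.999, 0.998 and 0.998 over the 6 libraries, among 14869 candidates with a mean of at least 1 CPM. CACFD1 was at 48.1, 47.2 and 51.0 CPM in DMSO and 40.1, 39.2 and 39.2 CPM in PARGi, a log2 fold change of -0.31. C1QTNF1, at -1.30, had a log2 fold change larger in size than that of any member. Of the candidates, 3.12% exceeded an r of 0.95. Each r spans both groups, so it takes in the difference between PARGi and DMSO by which the members were chosen. The 3 named genes were then picked by that r. The r values are a description, and shared regulation with the members was not tested.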

How the data were processed

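Per the labels, total RNA of U2OS cells was made into libraries with a TruSeq Stranded Total RNA kit and grouped by the sample titles. The deposited values are whole-number counts per gene, 1 column per library, and the authors did not normalise them. The submitters' processing notes name cutadapt 1.18, STAR 2.7.3a, SAMtools 1.9, DESeq2 3.12, deepTools and hg38, with no role or order. The annotation release, the strand setting of the counting and the treatment of reads that fit several genes are not given in the sources used here. No row lacked a gene. No pair of libraries looked like 1 library deposited a second time: over tested genes, the chi-square per degree of freedom was at least 2.27 within a group.

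Symbols were found for 60463 of the 60708 identifiers. Gene models and exonic lengths came from GENCODE 29 on GRCh38, which holds 58440 of them. Promoter windows came from RefSeq on GRCh38.p14, and all 10 members matched, with 14 windows.

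The counts were fitted with edgeR 4.0.16 (R 4.3.3), with its filterByExpr filter and TMM factors, by glmQLFit and a two-sided glmQLFTest of treatment over all 6 libraries. Benjamini-Hochberg adjustment covered the 20409 genes tested, and a gene was called at an adjusted p under 0.05. The script was tested on simulated data. Python 3.11.15, pandas 2.3.3 and matplotlib 3.10.9 served the summaries and figures.

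The members and gene lists were chosen with earlier results of these data known. KLF9, DUSP1 and USP2, not called, each stand in 2 lists. The genes named are the 10 members, the called genes of each list (the 4 with the smallest p where more were called), BMAL1, CLOCK, CRY1, CRY2, the 3 most alike genes and the genes that overlap a member. NPAS2, RORA, NFIL3, MYC, MYCN, MLXIPL, MXD1, MXD3, MGA, TFEC, MITF, HES1, TFE3 and MAX were named after their values were seen. A gene that the rule selects is not reported here. The alternatives were DESeq2 1.42.0, limma-voom (limma 3.58.1), upper-quartile scaling, DESeq2's size factors in the edgeR fit, tests without the filter or with 10 counts in every library, the replicate number as a block, and each library left out.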

Additional observations from a re-analysis of the deposited data

How the results depend on the processing

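The log2 fold changes of the 10 members were below 0 in every alternative that gave them a value, 13 for each other gene and 12 for CIART. The alternatives reuse the libraries that chose the group, so nothing is read from the shared sign. They ran from -0.96 to -0.89 for DBP, -0.41 to -0.36 for TEF, -0.73 to -0.66 for HLF, -0.51 to -0.41 for NR1D1 and -0.29 to -0.25 for NR1D2. They ran from -0.073 to -0.029 for PER1, -0.22 to -0.19 for PER3, -0.34 to -0.29 for BHLHE41 and -0.67 to -0.026 for CIART. The PER3 value moved by more than the spread between replicates with upper-quartile scaling, which shifted the median of all tested genes to -0.032. The count of called genes was 4951, with 4120 in DESeq2 and 4875 in limma-voom, and 3607 to 4848 with 1 library left out. The count for regulators of PER and CRY protein, 1, ran from 1 to 2 with 1 library left out. The count for hypoxia-related genes, 5, was 3 with upper-quartile scaling and ran from 2 to 5 with 1 library left out. The cause of these moves was not tested. Of 37 called list genes, 31 were called in every alternative.

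The groups share replicate numbers, but no label ties a number to a day, a culture or a batch. Same-numbered libraries correlated by -0.0082, 0.0166 and -0.0089 in their deviations, and not every library correlated best with its own number. With the replicate number as a block, 4553 genes were called in place of 4951. Depth limits CIART, at 4 to 16 counts a library. With 3 libraries a group and 1 time point, p-values set the group difference against the variation between these libraries, estimated partly across genes. They cover no other time point or experiment.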
